A study of Homo sapiens with 6 samples.

Results

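Interferon-stimulated genes are the genes that cells switch on when interferon, the cytokine of the antiviral response, reaches its receptors. The 39 listed here were taken by name, with earlier results of these data known. All 39 were found among 19974 protein-coding genes on chromosomes 1 to 22 and X. Type I and type III interferons act through JAK kinases and the factor ISGF3, which contains STAT2 and IRF9 and binds the interferon-stimulated response element (ISRE) in the promoters of these genes. Interferon gamma signalling acts on the gamma-activated site (GAS), and IRF1 and IRF7 bind elements that resemble the ISRE. The products sense viral RNA, block viral entry, translation and replication, or tune the pathway itself.

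Open chromatin was mapped in KMS-11 by ATAC-seq (Tn5 transposase inserts adapters where DNA is accessible); KMS-11 is an established plasma cell myeloma line. There were 2 groups of 3 biological replicates. Control cells are labelled LentiV2 and knockdown cells LentiV2_ATF4g3, so both carried the LentiV2 vector and the knockdown rests on 1 guide label. The genotype label is WT in all 6 libraries, and the labels do not say how the guide acts. ATF4 is a bZIP transcription factor of the integrated stress response. Peaks do not measure how much ATF4 was left. At the ATF4 gene itself the scaled covered length was 4089 ± 352 bp in controls and 3086 ± 713 bp in knockdown cells (SD, n = 3 each), and the groups overlapped.

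The deposited lists held 225832 to 238246 summits in controls and 220250 to 222779 in knockdown libraries, covering 67.0 to 70.7 Mb and 63.0 to 63.9 Mb. Depth was read from the lists as the pileup expected by chance across a library, which was 3.17 ± 0.37 in controls and 2.39 ± 0.21 in knockdown libraries (SD, n = 3 each; ratio 0.755; exact permutation test, two-sided, p = 0.1, the smallest that 3 against 3 libraries allow). Depth therefore moved with the group, and for every difference below its part cannot be told apart from that of the knockdown. Of 10 plasma cell marker genes, 10 were covered in all 6 libraries, among them SDC1, PRDM1, XBP1 and IRF4; markers of other cells (B; T and NK; myeloid; epithelial or stromal) were covered in all 6 libraries too (5 of 5 in each list), so covered length does not separate the cell types.

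Promoter stretches of 6 of the genes are shown for the element that many of them share. They come from the RefSeq promoter table (GRCh38.p14), run 5′ to 3′ on the gene's strand, and carry in capitals each match to the ISRE core, which is GAAA, any 2 bases, and GAAA again, on either strand. In the first 4 the start was listed as open in all 6 libraries, and in the last 2 it was listed in none.
ISG15, chr1:1013365-1013424, plus strand: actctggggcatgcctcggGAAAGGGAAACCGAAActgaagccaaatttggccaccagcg
IFIT1, chr10:89392495-89392554, plus strand: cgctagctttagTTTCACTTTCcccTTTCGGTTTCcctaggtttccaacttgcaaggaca
IFIT5, chr10:89414508-89414567, plus strand: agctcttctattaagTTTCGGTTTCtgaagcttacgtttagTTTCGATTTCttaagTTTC
BST2, chr19:17405720-17405779, minus strand: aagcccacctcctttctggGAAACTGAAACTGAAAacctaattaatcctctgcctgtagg
OAS3, chr12:112938414-112938473, plus strand: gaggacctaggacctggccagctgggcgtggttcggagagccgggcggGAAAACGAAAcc
IFITM3, chr11:320861-320920, minus strand: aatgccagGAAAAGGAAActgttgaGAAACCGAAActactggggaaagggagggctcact
The ISG15 and BST2 stretches each hold 2 overlapping matches, and the last 4 capitals of IFIT5 begin a match that runs across the start.

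Of the 39 genes, 31 had a window in that table, which spans 250 bases before to 50 after a start. The ISRE core was found in 21 of the 31 (67.7%), against 4.16% of 15812 protein-coding genes with a window. The GAS core TTCNNNGAA was found in 10 (32.3%), against 8.97%. The kB core (GGG, any 2 bases, TTTCC) was found in 3 (9.68%), against 2.55%. The ATF4 composite core TGATGNAAT was found in 0 of the 31, against 0.873%. All 4 were searched on both strands. A match is a description of letters, and genes in such lists are often known through these very elements.

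Starts were open both with and without an ISRE match. A listed peak lay over a start in all 6 libraries for 17 of the 21 genes with a match (81.0%) and for 9 of the 10 without (90.0%), against 64.4% of all genes with a window. The starts of OAS3, IFITM3 and IFI27 were listed in no library, that of IFITM1 in 4 and that of HERC6 in 3.

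For each gene, peak-covered bases in the 10 kb around both gene ends were counted, scaled to the library's total covered length and compared on the log2(bases + 200) scale with limma over all genes. None of the 39 passed an adjusted p of 0.05 (Benjamini-Hochberg over 18606 genes; smallest adjusted p 0.133, for IFIT2), and 0% of all genes did. At an unadjusted p under 0.05, 6 of the 39 were lower in the knockdown, where 9.08% of all genes were, and 3 were higher, where 4.89% were. The knockdown libraries lay all below the controls at 9 genes (11.9% of all genes) and all above at 4 (7.68% of all genes). The 9 are not separate loci, since IFITM1, IFITM2 and IFITM3, OAS2 and OAS3, and IFI44 and IFI44L share regions. Neighbouring genes share regions in the other gene counts too. The mean was lower in the knockdown at 33 of 39 genes, with a median log2 difference of -0.11, beside 54.9% of all genes and a median of -0.02. In the marker lists, lower means were found at 9 of 10 plasma cell markers (median -0.14), 4 of 5 myeloid (-0.14), 4 of 5 T and NK (-0.05) and 3 of 5 B cell markers (-0.01), and at 1 of 5 epithelial or stromal markers (0.13). Their part in the result was not tested. That count of 33 depended on how weak peaks were treated and on the window. It was 21 of 39 with lists cut to equal length and 18 of 39 with peaks of -log10 q of at least 2. With at least 5 it was 10 of 37 tested, where the median was 0.16 and that of all genes 0.19. Within 2 kb of the gene ends it was 17 of 36 tested, where the median was 0.0124 and that of all genes 0.00106.

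**Figure D1:**
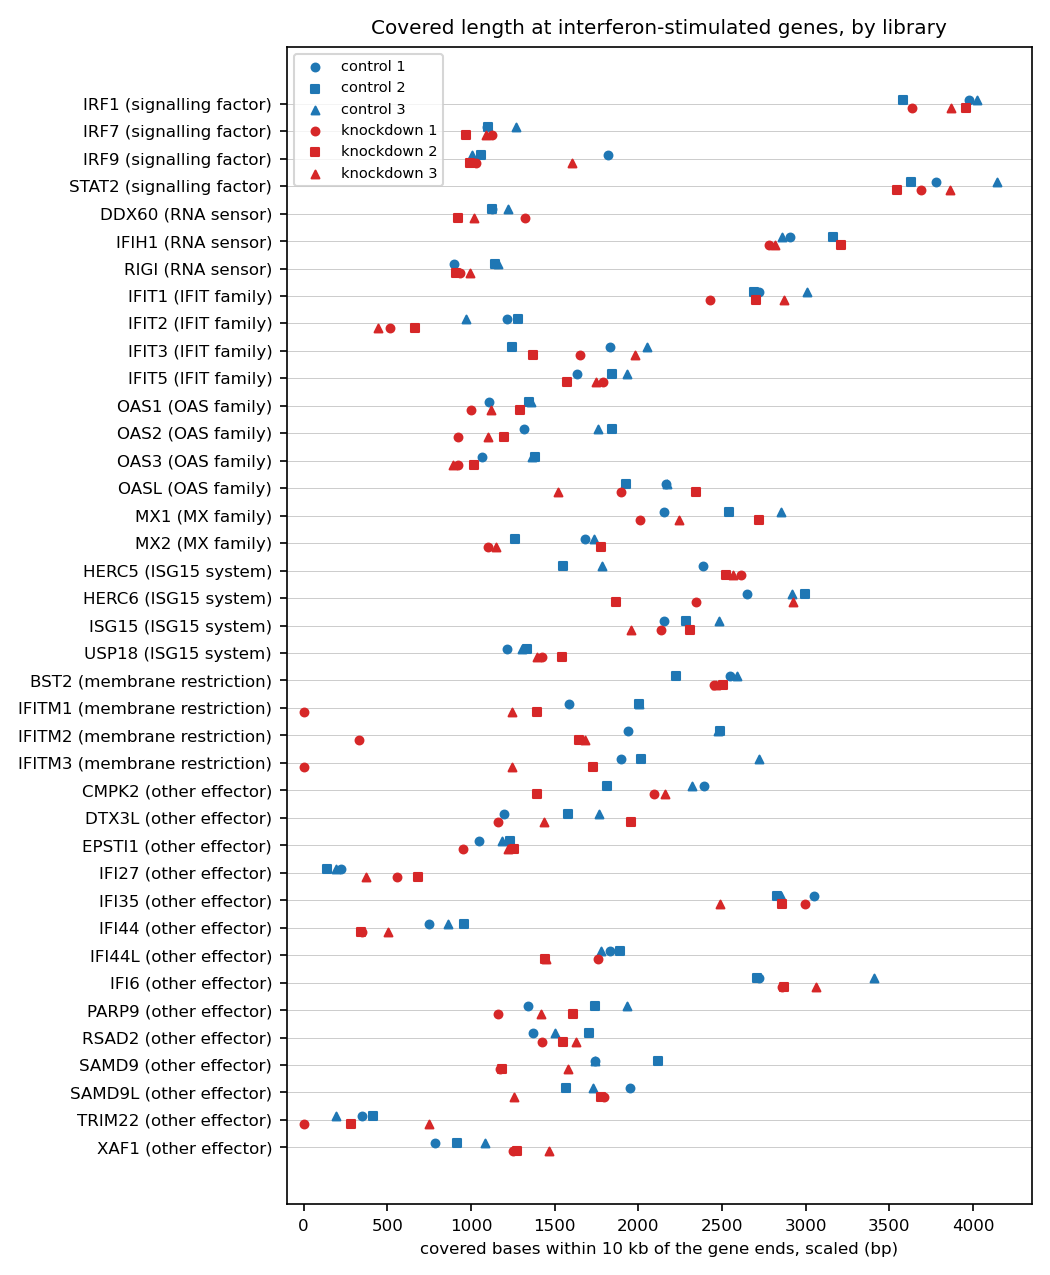
Scaled covered length around the gene ends (x axis, bp) for each of the 39 genes (y axis, with its role); blue points are the 3 control and red points the 3 ATF4 knockdown libraries. IFIT2, IFI44 and the IFITM genes have all red points to the left of the blue, IFI27, XAF1 and HERC5 have them to the right, and IFITM1, IFITM3 and TRIM22 have a point at 0 in knockdown 1.

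Of the signalling factors, STAT2 and IRF1 carried much covered length. IRF9 and IRF7 had control means of 1295 and 1157 bp, under the all-gene median of 1915 bp. The groups were mixed at each of these genes. STAT2, the ISGF3 subunit that brings the transactivation domain, had 3780, 3630 and 4145 bp in controls, against 3687, 3545 and 3862 bp under knockdown. IRF1 had 3974, 3582 and 4026 bp in controls, against 3637, 3961 and 3869 bp under knockdown. The groups overlapped at both genes, and the log2 differences were -0.05 ± 0.08 and -0.01 ± 0.07 (SE). They had the most covered length of the 39, followed by IFIH1, the gene of the RNA sensor MDA5, with 2908, 3163 and 2858 bp against 2779, 3213 and 2818 bp. The STAT2 length takes in regions over ends of the neighbouring genes PAN2 and IL23A. The region over the IFIH1 start also covers an end of GCA. IRF9, the DNA-binding subunit of ISGF3, had 1817, 1058 and 1009 bp in controls, against 1028, 993 and 1602 bp under knockdown, so 1 library of each group stood high. IRF7, the factor that amplifies interferon production, had 1098, 1103 and 1271 bp against 1126, 970 and 1087 bp. Their log2 differences were -0.07 ± 0.23 and -0.11 ± 0.13 (SE), with the groups overlapping.

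The IFIT genes encode proteins that bind viral RNA ends and block translation, and 4 of them lie side by side on chromosome 10 (chr10:89292046-89430997, hg38, with 10 kb added to either side). Across this stretch the scaled covered length was 9024, 8549 and 9679 bp in controls, against 8190, 7482 and 8710 bp under knockdown. The highest knockdown library lay above the lowest control (ratio of means 0.895; exact permutation test, two-sided, p = 0.2). At IFIT2 the controls had 1214, 1278 and 972 bp and the knockdown libraries 516, 664 and 443 bp. The groups did not overlap there (log2 difference -0.87 ± 0.20 SE; limma adjusted p = 0.133). IFIT1 (log2 difference -0.07), IFIT3 (-0.02) and IFIT5 (-0.07) overlapped between groups.

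Region by region, 3 stretches made up the IFIT2 length, all within the annotated span of LIPA. The region chr10:89295558-89296012, 6.03 kb from the nearer IFIT2 end, was listed in all 3 controls with folds over local background of 6.45, 6.06 and 4.42 and in no knockdown library. The region chr10:89293502-89293807, 8.24 kb away, was listed in all 6, with folds of 10.5, 13.7 and 5.97 in controls, against 2.85, 5.07 and 4.56 under knockdown. The region at the low-coordinate end of IFIT2 itself, chr10:89301722-89302365, was present in all 6. Its folds were 5.25, 9.23 and 3.76 in controls and 5.42, 6.97 and 3.99 under knockdown, so that the folds overlapped. Its covered length, unscaled, did not overlap: 587, 644 and 526 bp in controls, against 286, 427 and 196 bp under knockdown. At the stretch 6.03 kb away it was 443, 403 and 218 bp against 0 in every knockdown library, and at the one 8.24 kb away 263, 306 and 237 bp against 200, 203 and 230 bp. Within 50 kb of the gene ends the IFIT2 difference was -0.17. The peak over the IFIT1 start had folds of 10.98, 10.9 and 11.2 in controls, against 10.4, 10.7 and 8.68 under knockdown. The peak over the IFIT5 start, which also lies within 10 kb of IFIT1, had 14.9, 14.2 and 12.8 against 11.7, 10.2 and 9.94. The strongest peak near IFIT3 lay inside the gene, with folds of 10.6, 16.4 and 11.9 against 10.1, 14.2 and 12.2.

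The OAS genes encode synthetases of 2-5A, the messenger that activates RNase L. OAS1, OAS3 and OAS2 lie in a row on chromosome 12 (chr12:112896962-113021723 with 10 kb on either side), where the controls had 3531, 4018 and 4046 bp and the knockdown libraries 2845, 3758 and 2988 bp. The groups overlapped by 1 library (ratio 0.827; exact permutation test, two-sided, p = 0.2). Only 2 regions were found in all 6 libraries. The region over the OAS1 start had folds of 12.5, 15.2 and 12.8 in controls, against 5.38, 9.42 and 9.54 under knockdown, with no overlap. The region over the low-coordinate end of OAS2, which counts for OAS3 as well, had 16.3, 18.5 and 14.4 against 11.3, 14.7 and 13.4, with overlap. A region inside OAS2, chr12:112988120-112988587, was listed in the 3 controls with folds of 6.45, 7.65 and 6.19 and in knockdown 2 alone with 3.49. In covered length OAS2 had 1316, 1844 and 1761 bp against 923, 1197 and 1104 bp (log2 difference -0.52 ± 0.15 SE; limma adjusted p = 0.197). OAS3 had 1069, 1381 and 1365 bp against 923, 1021 and 895 bp (-0.36 ± 0.14 SE; limma adjusted p = 0.313), and shares its peaks with OAS2. OAS1 overlapped between groups in covered length (-0.14 ± 0.14 SE). OASL, the OAS-like gene elsewhere on the chromosome, overlapped as well (-0.13 ± 0.15 SE).

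**Figure D2:**
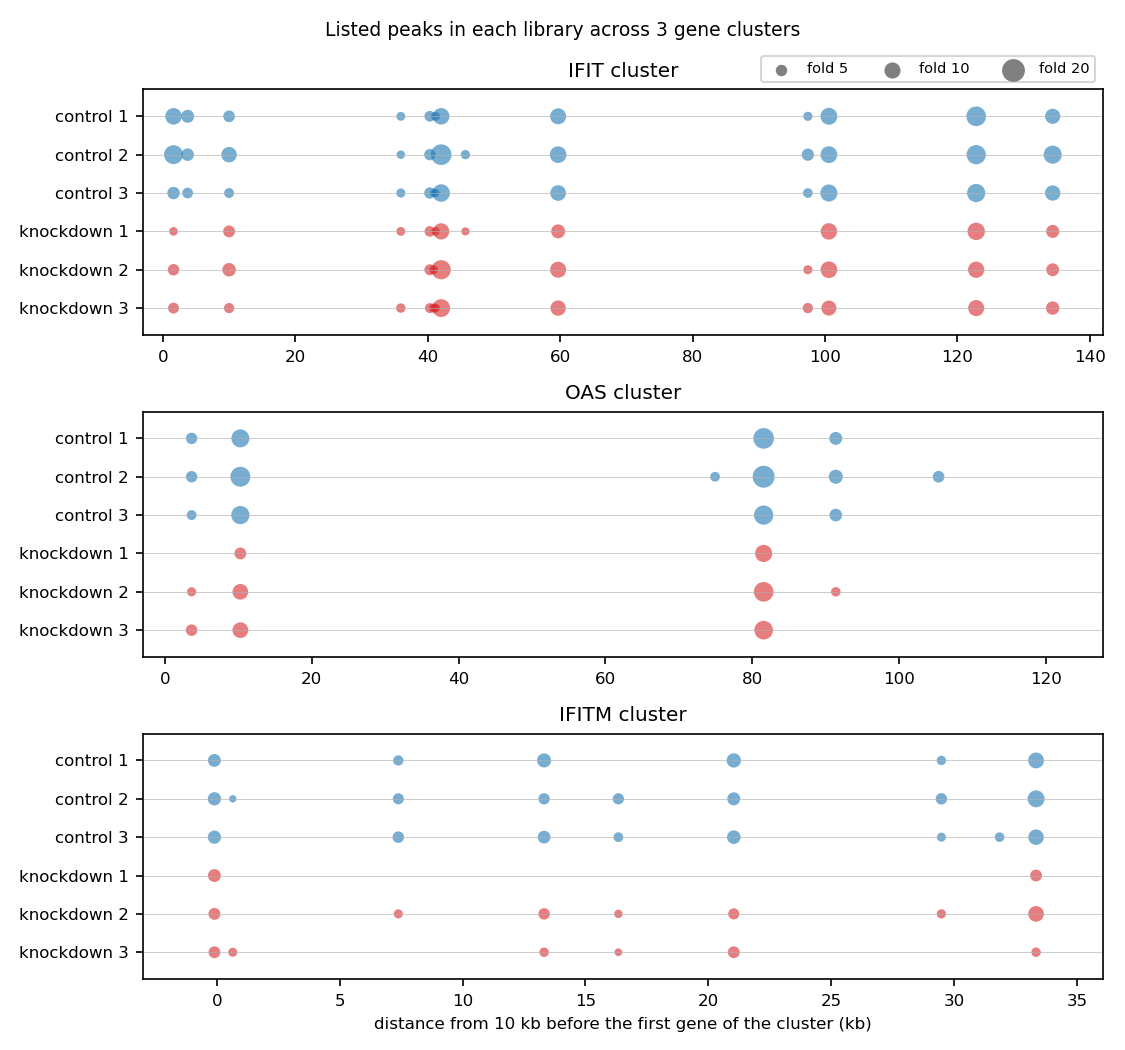
Listed peaks in each library (rows; blue control, red ATF4 knockdown) across the IFIT, OAS and IFITM clusters, by distance in kb from 10 kb before the first gene (x axis); the area of a point is the fold of the strongest peak in a region. The second point from the left of the IFIT cluster is present in the 3 controls only, and across the IFITM genes knockdown 1 has points only at the left and right edges, about 10 kb from the outer gene ends.

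The IFITM genes, whose membrane proteins hold back viral fusion, had the largest differences in size and the widest spread. Across the cluster (chr11:297816-330860) the controls had 2737, 3101 and 3371 bp and the knockdown libraries 329, 2166 and 1684 bp (ratio 0.454; exact permutation test, two-sided, p = 0.1, the smallest possible). Knockdown 1 stood apart: IFITM1 and IFITM3 had 0 bp there, while the other two knockdown libraries had 1392 and 1246 bp at IFITM1 and 1727 and 1246 bp at IFITM3. The controls had 1586, 2004 and 2007 bp at IFITM1 and 1896, 2015 and 2720 bp at IFITM3. IFITM2 had 1936, 2490 and 2476 bp against 329, 1643 and 1684 bp. No group overlapped at these 3 genes, which share most of their peaks (log2 differences -1.41 ± 0.68, -1.53 ± 0.71 and -1.02 ± 0.43 SE for IFITM1, IFITM3 and IFITM2; limma adjusted p = 0.403, 0.388 and 0.337). Without knockdown 1 the log2 differences were -0.44, -0.51 and -0.42 in the same order. Over all alternatives the log2 difference ran from -2.07 to -0.30 at IFITM1, from -2.20 to -0.51 at IFITM3 and from -1.38 to -0.42 at IFITM2. BST2, which tethers budding virions at the cell surface, had 2549, 2227 and 2589 bp against 2450, 2503 and 2465 bp and overlapped. Other neighbouring genes were measured as stretches in the same way as the IFIT, OAS and IFITM clusters. The ratio of means was 1.14 at the MX pair, 1.05 at the HERC pair, 0.973 at PARP9 and DTX3L, and 0.897 at CMPK2 and RSAD2. At the SAMD9 and IFI44 pairs it was 0.81 and 0.78 (exact permutation test, two-sided, p = 0.1 each).

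Among the other effectors, IFI44 had 750, 961 and 861 bp in controls, against 350, 344 and 507 bp under knockdown (log2 difference -0.82 ± 0.23 SE; limma adjusted p = 0.183). Within 2 kb the difference was -0.11. A region inside IFI44L, chr1:78641613-78641924, which is within 10 kb of IFI44 too, was listed in the 3 controls only, with folds of 5.01, 5.54 and 2.87. SAMD9, a growth and antiviral restriction factor, had 1739, 2117 and 1743 bp against 1175, 1187 and 1582 bp (-0.45 ± 0.14 SE; limma adjusted p = 0.213). With peaks of -log10 q of at least 5 the SAMD9 difference was -0.02. Both genes had knockdown libraries all below the controls. TRIM22 had 349, 416 and 194 bp in controls, against 0, 285 and 747 bp under knockdown, with the highest and the lowest value both in the knockdown.

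Of the 6 genes with a higher mean, 3 had an unadjusted p under 0.05: XAF1, HERC5 and IFI27. XAF1, a proapoptotic partner of XIAP, had 786, 918 and 1087 bp in controls, against 1250, 1277 and 1467 bp under knockdown (log2 difference 0.44 ± 0.15 SE; limma adjusted p = 0.232). HERC5, the ligase that attaches ISG15 to proteins, had 2387, 1549 and 1782 bp against 2613, 2527 and 2565 bp (0.41 ± 0.14 SE; limma adjusted p = 0.241). The HERC5 difference was 0.01 within 2 kb, 0.02 within 50 kb and 0.08 at the start end, and part of its added length was a faint region, chr4:88497859-88498432, listed in no control and in the knockdown libraries with -log10 q of 2.2, 1.48 and 0.854. IFI27 had 224, 142 and 195 bp against 558, 683 and 370 bp (0.91 ± 0.31 SE; limma adjusted p = 0.244). All 3 had knockdown libraries above all controls. IFI27 rested on faint peaks, the strongest with a -log10 q of 0.8 to 2.1 in the controls and 0.6 to 2.8 in the knockdown libraries, and with TRIM22 and IFI44 it was one of the 3 genes with the least covered length. At XAF1 and HERC5 the coverage was longer and the strongest peak weaker. The fold was 7.79 ± 0.63 against 5.49 ± 0.56 at XAF1 and 18.6 ± 0.43 against 14.9 ± 1.02 at HERC5 (SD, n = 3 each). A lower mean fold was general: it was found at 35 of 36 listed genes covered in all 6 libraries and at 90.5% of 17508 genes. USP18, the protease that removes ISG15, had 1213, 1336 and 1304 bp against 1424, 1542 and 1395 bp, again with no overlap (0.16 ± 0.11 SE; limma adjusted p = 0.577). RSAD2, which makes a chain-terminating nucleotide, had 1369, 1704 and 1500 bp against 1426, 1551 and 1630 bp, with overlap.

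**Figure D3:**
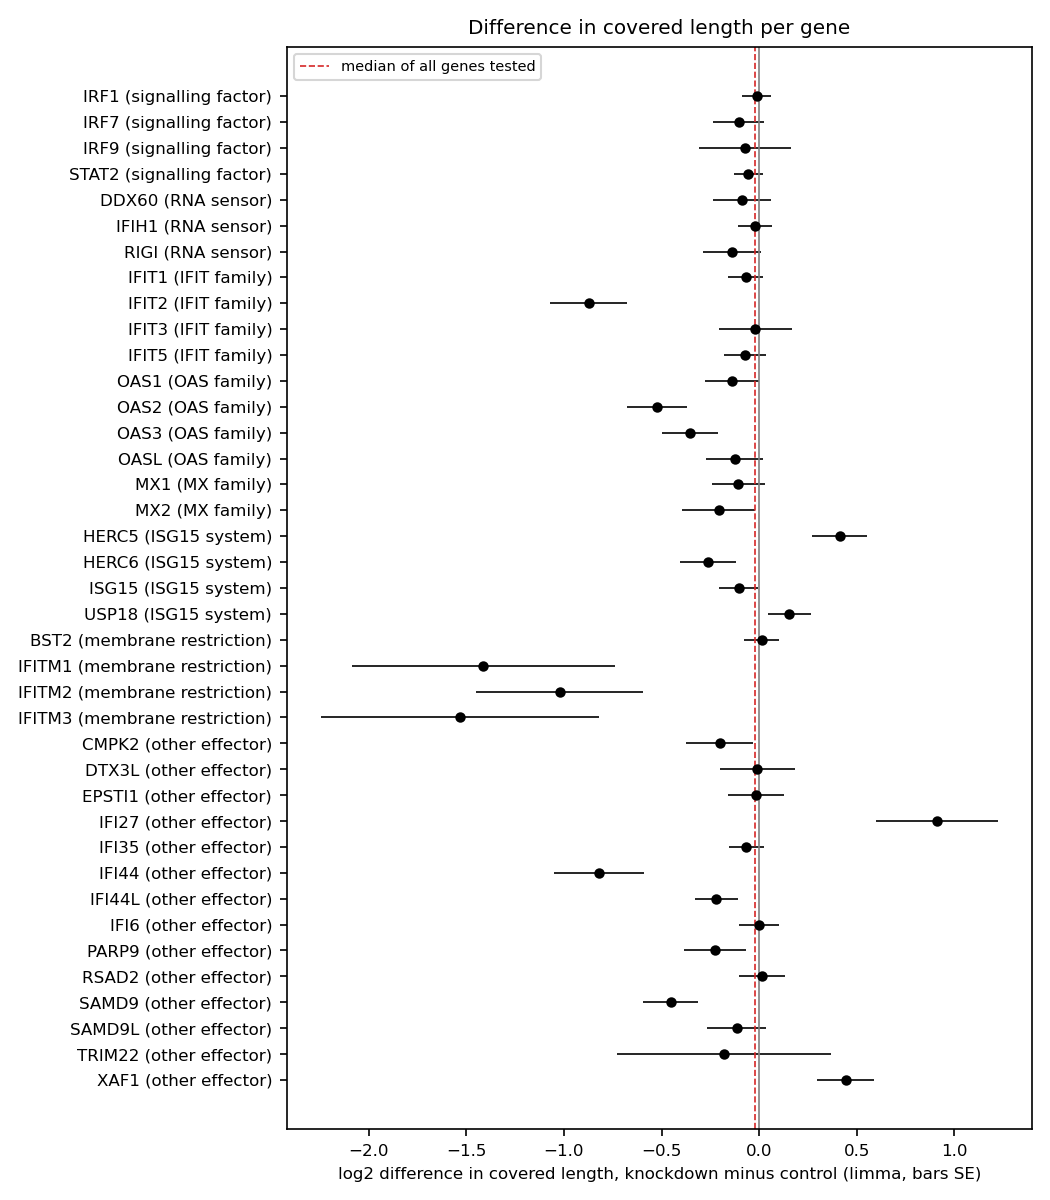
Log2 difference in covered length, knockdown minus control (x axis), with limma's standard error as bars, for the 39 genes grouped by role (y axis); the grey line is 0 and the dashed red line the median of all genes tested. Most points sit slightly left of 0, the IFITM genes, IFIT2 and IFI44 lie farthest left, and IFI27 lies farthest right.

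Of 135 merged regions near these genes, 62 were found in all 6 libraries, a share close to that near any gene (24875 of 57175). 3 were found in all controls and in no knockdown library, where 1.56% of 57175 regions near any gene were, and 0 in the knockdown alone, where 0.0752% were. The 3 are the IFIT2 and IFI44 regions above and one inside HERC6, chr4:88439053-88439331, with folds of 3.90, 3.94 and 4.28 in the controls. None of them lay within 2 kb of a gene end. Without knockdown replicate 2 the count was 8, and without control replicate 2 it was 5. Leaving out a library loosens the rule for every region, and the share near any gene was not counted there. These 2 counts therefore say nothing particular about the listed genes.

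The strongest peak near each gene gave 2 readings that point different ways. It was picked in each library separately, so at some genes it lay in different regions in different libraries. Ranked within its own list, as the comparison was designed, the strongest peak sat at a median percentile of 92.1 in controls and 92.2 in knockdown libraries over the 36 genes covered in all 6 (93.1 and 94.2 over 17508 genes). The knockdown percentiles lay all below the controls at 3 genes, MX1, OAS1 and IRF7, where 8.97% of all genes did. They lay all above at 6, STAT2, IRF1, RIGI, IFIH1, USP18 and SAMD9L, where 31% of all genes did. The caller's own fold was compared only after these counts had been seen. It was lower in all knockdown libraries at 23 of the 36 genes and higher at 0, where 49% and 1.25% of all genes were. The median ratio of folds was 0.789 for the 36 genes, which hold 32 distinct peaks, and 0.848 for all genes. Since the lists differ in length and depth, neither a rank nor a fold across them shows a change by itself.

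OAS1, MX1 and IRF7 were the genes where both readings were lower. OAS1 had percentiles of 91.4 in controls and 84.2 in knockdown libraries as means of 3, and -log10 q of 48.8, 70.8 and 59.5 against 9.2, 22.3 and 25.4. MX1, a GTPase that traps viral nucleocapsids, had folds of 19.9, 24.5 and 18.9 against 11.9, 16.03 and 16.5, and mean percentiles of 98.9 and 97.1. IRF7 had folds of 11.8, 12.4 and 11.1 against 7.4, 8.3 and 8.8, and mean percentiles of 88.2 and 85.8. STAT2 had folds of 18.0 ± 0.95 and 17.2 ± 0.80 (SD, n = 3 each), and a higher percentile in the knockdown, 98.9 against 97.0. These STAT2 values mix regions. In controls 1 and 3 the strongest peak lay over an end of PAN2, and in the other libraries over the STAT2 start. The PAN2 peak had folds of 18.1, 18.8 and 17.0 in controls, against 15.1, 14.3 and 15.1 under knockdown. The region also changed between libraries at other genes, ISG15 and IFI35 among them.

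The fold of the peak over the start itself was a further measure, also added after the regions had been seen, and is given as a description without a test. The measures looked at for these genes were covered length per gene and across clusters, regions, the strongest peak's percentile, fold and -log10 q, start fold, start pileup and motifs. At 26 genes, which hold 25 distinct peaks, a start was listed in all 6 libraries. The mean fold was lower in the knockdown at 26 of 26, with a median ratio of 0.775, beside 84.6% of 10190 genes and a median of 0.893. The knockdown libraries lay all below the controls at 21 of the 26, where 38.4% of all genes did, and above at 0, where 2.7% did. Without each library in turn the median ratio ran from 0.765 to 0.800, and that of all genes from 0.872 to 0.919. With the pileup recovered and divided by the library background, the median ratio was 0.658 for the 26 genes and 0.736 for all genes. By that measure the knockdown libraries lay all below the controls at 22 of the 26, where 68.7% of all genes did. The contrast in these shares was therefore much smaller than with the fold.

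The median ratio was 0.782 at the 17 genes with an ISRE match, 0.750 at the 9 without, and 0.876 at 390 other genes with a match. A gene counted as having a match if any of its windows did. The split is therefore by gene, and at MX1 the window of the measured start holds no match. OAS1 had the lowest ratio, 0.601, followed by IFI35 with 0.615. STAT2 had the highest, 0.978, and IRF1 had 0.958. ISG15, the ubiquitin-like modifier, had folds of 13.7, 16.4 and 15.1 in controls, against 12.1, 10.8 and 11.7 under knockdown. DDX60, a helicase linked to RNA sensing, had 22.02, 23.9 and 19.8 against 16.2, 18.4 and 18.4. At both genes every knockdown library lay below every control. Background pileup moved with the group as given above, and its part in these ratios was not tested.

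**Figure D4:**
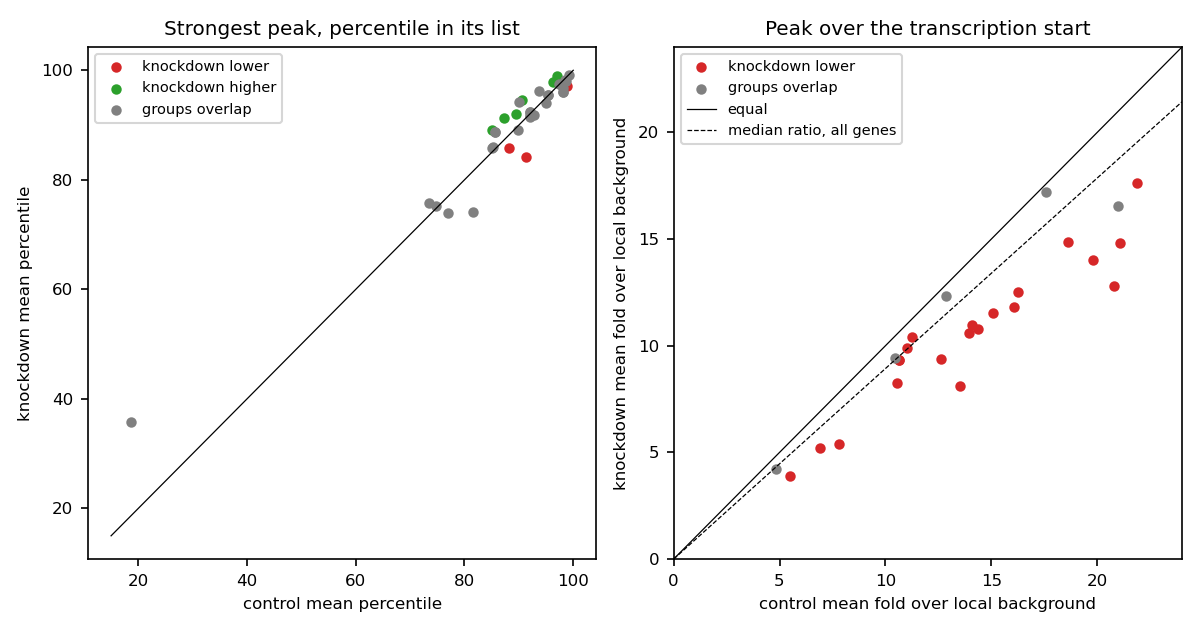
Left, mean percentile of the strongest peak within its list in controls (x axis) and knockdown libraries (y axis) for 36 genes; right, mean fold over local background of the peak over the start for 26 genes, with lines for equality and for the median ratio of all genes. Points on the left fall on both sides of equality, with 3 genes lower and 6 higher without overlap, while all 26 on the right lie under equality.

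Another 77 genes of the interferon pathway (ligands, receptors, signalling, sensing and other effectors) were measured beside these. None passed an adjusted p of 0.05, 12 were lower and 1 higher at an unadjusted p under 0.05, and the median log2 difference was -0.08, beside 9.08% lower, 4.89% higher and a median of -0.02 over all genes. STING1, the adaptor of DNA sensing, had 1640, 1713 and 1950 bp in controls, against 1209, 1173 and 1386 bp under knockdown (log2 difference -0.43 ± 0.12 SE; limma adjusted p = 0.179). The interferon genes IFNE and IFNA8 had log2 differences of -1.55 ± 0.42 and -1.08 ± 0.29 (SE; limma adjusted p = 0.18 for each), IFNE with 0 bp in 2 knockdown libraries. SP100, a nuclear body protein, had -0.38 ± 0.12 (SE; limma adjusted p = 0.219). SOCS3, which dampens JAK signalling, was the gene with a higher mean, 2261 ± 131 bp against 2832 ± 217 bp (SD, n = 3 each; limma adjusted p = 0.209). All 6 receptor genes had lower means, with a median log2 difference of -0.18, where 54.9% of all genes had a lower mean. At the starts of 45 pathway genes the median fold ratio was 0.897, close to the 0.893 of all genes.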

How the data were processed

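The deposited files are 6 peak lists, 1 per library, which the submitters' processing notes tie to MACS2 and hg38; aligner, version and peak threshold: not given in the sources used here. In the deposited values, the score is 10 times -log10 p capped at 1000, the fold (a ratio) is enrichment over local background at the summit, and -log10 p and -log10 q are the caller's; no -log10 p lies under 2. Summits on chromosome Y (6 to 16 a list) were left out. No read counts were used, so depth is known only through the background pileup recovered from fold and p.

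Covered length was the union of listed intervals within 10 kb of either gene end (RefSeq, GRCh38.p14), times the mean over the library's total; genes covered in at least 3 libraries were fitted as log2(bases + 200) with limma 3.58.1 (trend, robust) in R 4.3.3, with Benjamini-Hochberg adjustment over all genes. The fit was tested on simulated data. Regions were merged over libraries at -log10 q of at least 2; overlap was 1 bp. The genes and lists were chosen with earlier results of these data known. The named genes were the IFIT and OAS clusters, STAT2, IRF1, IRF7 and IRF9, the 6 smallest unadjusted p in each direction, the 3 with most and the 3 with least covered length, those with no peak in some library, and of the pathway at most 4 in each direction at an unadjusted p under 0.05; others named for their strongest peak, start or promoter were picked after their values were seen. The strongest-peak comparison was designed on percentiles; its fold version and the start measures were added after results had been seen, as was choosing each start by its mean fold over all 6 libraries in place of the control fold. The alternatives tried were other scalings, list lengths, q limits, windows, added bases, no filter, a replicate block and leaving out each library.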

Additional observations from a re-analysis of the deposited data

How the results depend on the processing

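Limits first: the lists hold no reads, depth differed between the groups, and 3 against 3 libraries cannot go under an exact p of 0.1. Directions of small differences depended on how weak peaks were treated and on the window. Of the 39 genes, the number past adjusted p 0.05 (limma) was 1 with no scaling (IFIT2), 1 within 50 kb (IFI44L) and 6 at -log10 q of at least 5 (HERC5, IFI6, IRF1, IRF9, STAT2 and USP18, all higher), against 0 otherwise; of all genes 3.72%, 4.12% and 33.9% passed there. Those lower at unadjusted p 0.05 were 10 with no scaling, 3 at q 5 and 3 within 2 kb, where 23.8%, 5.32% and 7.09% of all genes were; those higher were 11 at q 5, 1 within 2 kb, 1 within 50 kb and 0 at the start end only, where 41.8%, 3.70%, 8.39% and 4.04% were. Genes with a lower mean were 21 (equal lists), 18 (q 2), 10 of 37 tested (q 5) and 17 of 36 tested (2 kb). The median log2 difference was -0.22 (no scaling), -0.0114 (equal lists), 0.0205 (q 2), 0.16 (q 5) and 0.0124 (2 kb). No scaling moved the median of all genes to -0.14.

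For the 77 pathway genes, those past adjusted p 0.05 were 3 with no scaling, 25 at q 5 and 5 within 50 kb. Those lower at unadjusted p 0.05 were 29 (no scaling), 6 (q 2) and 4 (2 kb), where 23.8%, 5.76% and 7.09% of all genes were. Those higher were 0 (no scaling), 2 (median scaling), 8 (equal lists), 11 (q 2), 27 of 72 (q 5), 2 (2 kb) and 3 (start end), where 2.49%, 6.99%, 9.04%, 15.6%, 41.8%, 3.70% and 4.04% of all genes were. Lower means numbered 23 at q 5. Their median was -0.21 (no scaling), 0.0042 (equal lists), 0.0368 (q 2), 0.18 (q 5), -0.0238 (2 kb) and -0.0303 (start end).

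Regions in controls only were 5 with any listed peak and 0 within 2 kb. Those in the knockdown only were 1 with any listed peak, and those in all libraries were 34 within 2 kb. The share near any gene was not counted at these settings. Ranked by -log10 q, the strongest peak's percentile was lower at 6 genes and higher at 4 (13.2% and 15.6% of all genes), and its -log10 q was lower at 32 of 36, where 89.7% of all genes were. The kB core was in 1 gene on the forward strand. The median start ratio was 0.658 with pileup over background, beside 0.736 for all genes.

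Signs were followed at part of the genes only: the IFIT, OAS and IFITM clusters, STAT2, IRF1, IRF7 and IRF9. The others followed were IFI44, SAMD9, XAF1, HERC5, IFI27, USP18 and the pathway genes named above. Reversed signs among these, as log2 differences: with equal lists IFIT1 0.0262, IFIT3 0.0736, IFIT5 0.0196, STAT2 0.0647, IRF1 0.085 and IRF9 0.16. At q 2, IFIT1 0.0566, IFIT3 0.11, IFIT5 0.075, OAS1 0.0164, STAT2 0.17, IRF1 0.12, IRF7 0.0342 and IRF9 0.33. At q 5, IFIT1 0.17, IFIT3 0.24, IFIT5 0.24, OAS1 0.27, OAS3 0.0292, STAT2 0.25, IRF1 0.31, IRF7 0.16, IRF9 0.38 and STING1 0.25. With median scaling, IFIT3 0.014 and IRF1 0.0216. Within 2 kb, IFIT5 0.0165, OAS1 0.0508, IRF1 0.0704 and IRF9 0.0417; at the start end, IFIT5 0.0165 and IRF1 0.0276; within 50 kb, IFI27 -0.0059. The cause was not tested.

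Leaving out each library in turn, the 39 genes had 0 past adjusted p 0.05, 4 to 9 lower and 1 to 2 higher at unadjusted p 0.05, 26 to 31 lower means and a median of -0.13 to -0.08. The pathway had 1 to 3 higher and 8 to 15 lower. Of all genes, 5.89% to 10.1% were lower and 3.62% to 4.96% higher at unadjusted p 0.05 in these runs. Regions in controls only were 3 to 8, with the share near any gene not counted. Among the genes whose signs were followed, they turned at IFIT3 (-0.21 to 0.11), IRF1 (-0.0632 to 0.0208) and IRF9 (-0.26 to 0.16). Same-numbered libraries did not deviate together (r = 0.016, 0.001 and 0.025 for the 3 numbers), so the numbers were not taken as pairs. With the replicate block 0 of the 39 passed adjusted p 0.05. At unadjusted p 0.05, 8 of the 39 were lower and 3 higher with the block, where 9.56% and 5.07% of all genes were.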
